A study of Mus musculus with 24 samples.

Results

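Coding exon sites away from transcription starts are stretches of open chromatin whose strongest point lies in protein-coding sequence of a gene body rather than at a promoter. They were found in ATAC-seq peak lists of mouse embryonic stem cells, an assay in which a transposase inserts adapters into accessible DNA. A peak qualified when its summit, the position of highest signal, lay in a coding part of an exon in the GENCODE vM21 basic annotation, on chromosomes 1 to 19, more than 2000 bp from every annotated transcription start. Overlapping qualifying peaks of the 24 lists were merged, and regions called by 2 or more libraries were kept. This gave 9841 sites of 234645 sites of all classes formed by the same merging, the others being 100159 intronic, 81733 intergenic, 36624 near a start and 6288 in noncoding parts of exons. The 24 lists together held 77158 coding exon peaks, which merged to 17860 regions. Of these, 8019 were called by 1 library and left out, 2508 members were called by exactly 2 libraries and 1440 by 3. Within 500 bp of the distance limit of 2000 bp, 394 members lay just beyond it, and 395 regions that met every other condition lay just inside it and were left out.

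All libraries came from E14 mouse embryonic stem cells that carry CTCF AID, that is CTCF fused to an auxin-inducible degron, so that adding the auxin IAA leads to its destruction. There were 12 groups of 2 libraries in 4 sets. The CTCF lines set held a line labelled overexpressed control without IAA and with 12 h of IAA, a line overexpressing wild-type CTCF with 12 h of IAA, and a line overexpressing mutated CTCF with 12 h of IAA. The Chd4 and Chd8 sets, without IAA, each held the hairpin shluci and the hairpins shRNA1 and shRNA2 named for the remodeller gene. The serum set held cells in serum without IAA and with IAA for 12 h. For every library, this set included, the labels' growth protocol names a serum-free medium with LIF, PD0325901 and CHIR99021, so the word serum rests on the sample labels alone. The labels do not say what the CTCF mutation changes, whether a line is a clone, or whether replicates came from separate cultures, so the spread between replicates may be technical. Residual CTCF, Chd4 and Chd8 levels were not measured here. Of 9 embryonic stem cell marker genes, all had a promoter peak in some library, from 5 libraries at Pou5f1 to 24 at Nanog and Esrrb, with a median of 20. The blood marker Ptprc, the endoderm markers Afp and Ttr, and the fibroblast gene Col1a1 had none in any library, while other genes of those lists and of the trophoblast and neuron lists had promoter peaks in 5 to 23 libraries.

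Most open chromatin outside promoters lies in introns and between genes, where enhancers and insulators recruit transcription factors that displace nucleosomes. Coding exons are usually wrapped in nucleosomes, and their sequence must also keep the reading frame. Some nevertheless hold factor binding sites, and CpG islands, stretches of unmethylated CG-rich DNA, occur within gene bodies as well as at promoters. CTCF is a zinc finger protein that binds a long consensus, blocks cohesin in an orientation-dependent way and so anchors chromatin loops. CHD4, the ATPase of the NuRD complex, and CHD8 are chromatin remodellers that move or evict nucleosomes.

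CTCF consensus matches and clusters of CG dinucleotides were both more common in these sites than in coding parts without a site, and the results turn on them. The 7 sequences that follow come from sites with a peak in each of the 4 control libraries without IAA, over both media, and in none of their 4 counterparts with IAA. They are 81 bases long, on the gene's strand, from RefSeq's GRCm38.p6 assembly, and the capitals mark the match to the CTCF consensus, of 14 bases, with at most 1 mismatch on either strand. In Crtc1, Sfpq, Ecd, Nynrin and Kndc1 the match lay wholly in the coding part. In Arhgef26 and Slc26a11 it lay over or beyond an exon end, and in Slc26a11 it lay outside the merged site. Crtc1 encodes a coactivator of the transcription factor CREB, and the piece is chr8:70392921-70393001, minus strand, in exon 9 of 14. Sfpq encodes a splicing factor, and the piece is chr4:127027396-127027476, plus strand, in exon 9 of 10. Ecd encodes a cell cycle and splicing protein, and the piece is chr14:20328580-20328660, minus strand, over exon 11 of 14. The piece of Nynrin is chr14:55863942-55864022, plus strand, in exon 4 of 9, and that of Kndc1 is chr7:139930883-139930963, plus strand, over exon 24 of 31. Arhgef26 encodes an exchange factor for small GTPases, and its piece is chr3:62458435-62458515, plus strand, at exon 12 of 14. Slc26a11 encodes an anion transporter, and its piece is chr11:119363663-119363743, plus strand, downstream of exon 6 of 17.
Crtc1: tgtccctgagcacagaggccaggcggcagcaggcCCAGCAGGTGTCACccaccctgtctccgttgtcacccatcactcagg
Sfpq: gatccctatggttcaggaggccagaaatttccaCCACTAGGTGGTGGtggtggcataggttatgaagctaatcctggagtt
Ecd: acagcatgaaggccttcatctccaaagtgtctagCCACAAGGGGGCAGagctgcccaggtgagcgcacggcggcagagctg
Nynrin: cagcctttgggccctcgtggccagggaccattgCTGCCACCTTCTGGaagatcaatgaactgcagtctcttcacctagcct
Kndc1: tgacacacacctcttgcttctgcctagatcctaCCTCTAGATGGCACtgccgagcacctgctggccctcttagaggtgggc
Arhgef26: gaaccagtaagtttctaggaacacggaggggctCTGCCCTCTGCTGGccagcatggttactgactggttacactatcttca
Slc26a11: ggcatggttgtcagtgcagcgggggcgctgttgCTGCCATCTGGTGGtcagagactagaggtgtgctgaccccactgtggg

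The next 4 sequences, of 151 bases around the summit with CG dinucleotides in capitals, are from sites whose summit lay in the coding exon in all 24 reduced lists. They are shown because they range from rich to poor in CG. The piece of Grm5, a glutamate receptor gene, is chr7:88130397-88130547, plus strand, and holds 10 CG dinucleotides. That of Zfp697, a zinc finger gene, is chr3:98427435-98427585, plus strand, and holds 11. That of Arhgap31, a GTPase activating protein gene, is chr16:38603538-38603688, minus strand, and holds 2. That of Phf3, a PHD finger gene, is chr1:30805041-30805191, minus strand, and holds 2.
Grm5: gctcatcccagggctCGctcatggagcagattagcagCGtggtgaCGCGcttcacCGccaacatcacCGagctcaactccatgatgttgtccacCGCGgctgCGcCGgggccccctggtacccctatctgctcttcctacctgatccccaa
Zfp697: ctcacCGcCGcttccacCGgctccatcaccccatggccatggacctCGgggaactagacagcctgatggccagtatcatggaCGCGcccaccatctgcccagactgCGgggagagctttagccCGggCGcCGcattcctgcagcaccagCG
Arhgap31: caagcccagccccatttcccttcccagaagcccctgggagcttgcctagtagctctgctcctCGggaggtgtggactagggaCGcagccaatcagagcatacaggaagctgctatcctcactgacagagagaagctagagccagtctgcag
Phf3: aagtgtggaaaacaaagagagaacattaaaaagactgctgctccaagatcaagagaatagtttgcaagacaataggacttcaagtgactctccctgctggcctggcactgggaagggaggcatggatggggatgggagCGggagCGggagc

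Members lay deep in genes, with a median of 11859 bp to the nearest start. They fell in 6287 genes, 37.5% of the 16777 genes with coding sequence more than 2000 bp from starts, and 65.6% of these genes had 1 site. Merged sites had a median width of 413 bp (40 to 3524 bp), wider than their coding part in 70.5% of cases, and a median of 55.0% of a site was coding. Wholly coding sites made up 14.9%. The median summit lay 48 bp from the nearer end of its coding part, and many merged sites span an exon end. An exact copy elsewhere in the genome of the 32 bases at the summit was found for 133 sites (1.35%).

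Per megabase of sequence, coding exons held more summits than any other class away from starts. Over the 26.2 Mb of eligible coding sequence there were 375 merged sites per Mb, against 167 in noncoding exon parts, 104 in introns and 70.3 between genes. Counted in the reduced list of each library, which is its strongest peaks up to the length of the shortest list of its set, coding sequence held 56.7 to 142 summits per Mb over the 24 libraries and introns held 18.6 to 50.4. The medians were 116 and 48.7 summits per Mb.

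The strength of a peak was its percentile by the authors' −log10 p within the reduced list, where 100 is the strongest. Coding exon peaks were weaker than intronic peaks in the CTCF lines, with library medians of 35.4 to 39.96 against 44.1 to 44.8, and the ranges over the 8 libraries did not overlap. In the serum set the medians were 35.95 to 36.6 against 40.03 to 41.01, again without overlap. In the Chd8 set the coding medians of 41.9 to 44.8 overlapped the intronic ones of 43.9 to 45.05. In the Chd4 set the coding medians of 41.6 to 47.3 likewise overlapped the intronic ones of 45.2 to 46.7. Peaks were also much narrower in the Chd sets, with median coding exon peak widths of 76 to 133 bp against 336 to 484.5 bp in the other sets, so levels are not compared across sets.

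The number of libraries with a site depended on what was counted. By a library's own peak with its summit in the coding exon, in the deposited lists, the median member was in 4 libraries, 16.2% were in 12 or more and 79 (0.80%) in all 24. Intronic sites, counted in the same way, had a median of 6, with 29.9% in 12 or more and 2.45% in all 24. By any peak of the reduced list over the site, the order turned round, with a median of 8 libraries for members and 5 for intronic sites, and 38.1% against 27.8% in 12 or more. The members called this way in all 24 libraries numbered 291 (2.96%), against 2.20% of intronic sites and 14.4% of sites near starts. A peak can lie over a site while its own summit lies outside coding sequence, and the 2 counts differ in this and in the length of the lists.

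**Figure D1:**
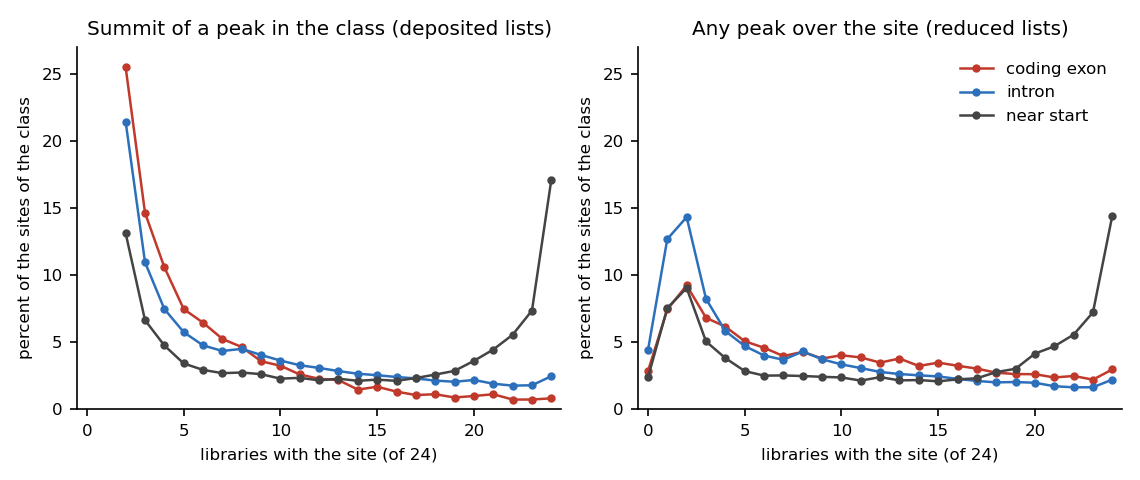
Percent of the sites of a class (vertical) by the number of libraries that have the site (horizontal), for coding exon, intronic and near-start sites. On the left a library counts when its deposited list has a peak with its summit in that class, on the right when any peak of its reduced list overlaps the site. Coding exon sites lie below intronic sites at 24 libraries on the left (0.80% against 2.45%) and above them on the right (2.96% against 2.20%).

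Long coding parts held sites most often. Of coding parts under 100 bp, 1.90% held a site, and the percent was 6.63 at 150 to under 200 bp, 25.9 at 400 to under 1000 bp and 39.5 in parts of 1000 bp or more. Sites per Mb did not follow this order, with 276 in parts under 100 bp, 443 at 200 to under 400 bp and 285 in parts of 1000 bp or more. Internal coding parts were 85.2% of all eligible parts and held 72.9% of the sites. Last coding parts were 11.8% of parts and held 21.1% of sites, and coding parts that are the only one of their transcript were 0.42% of parts and held 2.53%. Per Mb this order changed, with 302 sites in the only parts, 334 in first, 347 in internal and 426 in last parts. The share of sites in 12 or more libraries by own summit rose with part length from 3.46% to 38.0%. By any overlapping peak it lay between 35.4% and 42.5% with no such rise.

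**Figure D2:**
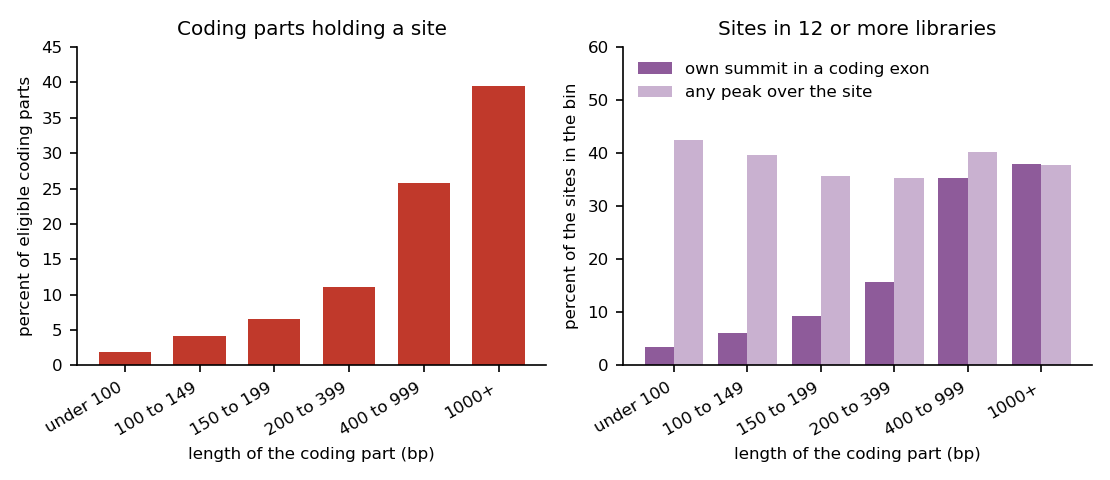
Coding parts by length in bp (horizontal). Left, the percent of eligible parts that hold a site, which rises from 1.90% to 39.5%. Right, the percent of sites in 12 or more libraries, by own summit in the coding exon (dark) and by any overlapping peak (light). The dark bars rise with length and the light bars stay between 35.4% and 42.5%.

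Base composition set the members apart from intronic sites. Within 250 bp of the summit on either side the median GC content was 53.5% against 48.3% for intronic sites, and the median ratio of observed to expected CG dinucleotides was 0.37 against 0.22. Coding parts that held no site, measured around their centres, had medians of 47.1% and 0.26. Windows with a GC content of at least 50% and a CG ratio of at least 0.6, here called island-like, made up 943 members (9.58%), against 0.90% of intronic sites and 30.2% of sites near starts, and against 0.58% of coding parts without a site. Island-like members had their own summit in a median of 11 libraries against 4 for the others, and were overlapped by a peak in a median of 16 against 8. Thus the island-like members were the more widely open under either count. They were 36 of the 79 sites with their own summit in all 24 deposited lists. Repeat-masked sequence was scarce, with a median of 4.99% of the window against 12.4% at intronic sites.

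In the reduced lists 60 sites kept their own summit in all 24 libraries. Their coding parts were long, with a median of 1102 bp, and 56 of the 60 lay in parts of 400 bp or more. The rule asks for a summit inside coding sequence in every list, so it favours long parts by construction. Of the 291 members overlapped by a peak in all 24 libraries, 55 lay in parts of 400 to under 1000 bp and 44 in longer parts. Among the 60, the last or only coding part held 39, and 26 (43.3%) were island-like. None had a second exact copy. The 6 with the highest mean percentile were in Grm5, Zfp697, Cyp4f13 (a cytochrome P450 gene), Arhgap31, Lgr4 (a receptor for R-spondins in Wnt signalling) and Phf3, all in the last exon of the gene. Grm5 ranged from the 66.8 to the 99.8 percentile over the 24 libraries and had a mean of 90.9. Zfp697, with a mean of 89.3, ranged from 72.1 to 96.9. The sites of Grm5 and Zfp697 were island-like with CG ratios of 0.82 and 0.73. Within the Chd8 set Lgr4 ranked at 94.5 to 98.5, and within the serum set at 34.3 to 72.6. For Phf3 the Chd8 libraries gave 91.7 to 97.3, and those in serum 58.6 to 84.0. At Cyp4f13 the Chd4 shRNA2 libraries stood at 57.8 and 74.4, below the shRNA1 libraries at 95.5 and 98.2 and the shluci libraries at 81.5 and 88.5. Arhgap31, whose piece printed above is CG-poor, was strong throughout, at 66.1 to 96.1.

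Short sequence motifs were counted in the same windows, on either strand and without mismatch except for CTCF. The CTCF consensus occurred in 573 members (5.82%), against 1.70% of the 153809 coding parts without a site, 5.63% of intronic sites and 5.87% of all sites. Permuted forms of the consensus occurred in 0.417% to 1.76% of members (10 permutations, mean 1.06%). The GC box GGGCGG, bound by SP and KLF factors, was in 24.7% of members, 9.23% of coding parts without a site and 13.1% of intronic sites. The E-box CACGTG, bound by MYC and USF, was in 12.1%, 7.04% and 9.24%. The ETS core CCGGAAGT was in 1.97%, 0.75% and 0.86%. The E-box CAGCTG was in 37.3%, 27.9% and 28.7%. The NRF1 consensus was in 0.254% (25 members), 0.0403% and 0.149%. Several motifs were less common in members than in intronic sites. The octamer ATGCAAAT of OCT4 was in 1.96% of members, 2.13% of coding parts without a site and 4.30% of intronic sites, and the GATA word AGATAA was in 13.3%, 23.0% and 20.9%. The estrogen-related receptor word TCAAGGTCA was in 1.98%, 0.98% and 2.86%. These shares were not tested, and GC content also differed between the windows.

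CTCF matches inside coding sequence were spread unevenly over the reading frames. Of the 573 members with a match, 230 had it wholly inside the coding part, 247 on the gene's strand and 326 on the opposite strand. The median distance of the match to the summit was 98.5 bp. A match shared by neighbouring members is counted once for each of them, as in Sned1 and Cpn2. No comparison was made with matches in coding parts without a site. Among the 96 inside matches on the gene's strand, the first base fell on codon position 3 in 58, on position 1 in 27 and on position 2 in 11. In the frame with 58 matches, bases 5 to 7 of the match form a codon of their own, which was the glutamine codon CAG in 46. TAG, the other form the consensus allows, was in none, and as an in-frame stop it could not occur there. In the frame with 27 matches, where these bases do not form a codon, TAG stood there in 8, and in the remaining frame, with 11 matches, in none. On the opposite strand, 69 of 134 inside matches began at position 3 when read along the gene, 37 at position 1 and 28 at position 2. The matches of Crtc1 and Ecd printed above are on the gene's strand in the most common frame, those of Sfpq and Kndc1 in the frame of position 1.

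Degradation of CTCF lowered the share of coding exon peaks with a CTCF match in every library compared. In serum-free medium this motif share was 7.43% and 7.71% without IAA and 3.23% and 3.45% with IAA. In serum it was 10.2% and 9.64% without IAA and 4.14% and 4.06% with IAA. All IAA libraries lay below all libraries of the same medium without IAA. The change was −4.23 points in serum-free medium (pooled SD within groups 0.181, 2 libraries against 2) and −5.84 points in serum (SD 0.298), each with p = 0.33 in an exact permutation test (two-sided), the smallest that 2 against 2 allows. Over both media it was −5.03 points, lower in 4 of 4 libraries, with p = 0.056 in a two-sided exact permutation test, the smallest it can give here. One-sided it was 0.0278, and the two-sided value was 0.33 after Benjamini-Hochberg adjustment over 15 tests of shares, which does not pass 0.05. Within the serum-free libraries that share a strong peak at mitochondrial-like sequence, 1 with IAA against 2 without, the change was −4.12 points.

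The same share among intronic peaks fell from 6.58% and 6.67% to 2.67% and 2.66% in serum-free medium and from 12.2% and 11.4% to 3.41% and 3.44% in serum. The coding exon minus intronic change was −0.264 points in serum-free medium and 2.55 points in serum. Over both media it was 1.14 points (p = 0.33, exact permutation test, two-sided). With peaks of −log10 q of at least 10 the direction turned, to −2.04 points (p = 0.056, exact permutation). In serum without IAA, coding exon peaks had the lower motif share of the pair of classes, and in each of the other 11 groups they had the higher mean share.

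**Figure D3:**
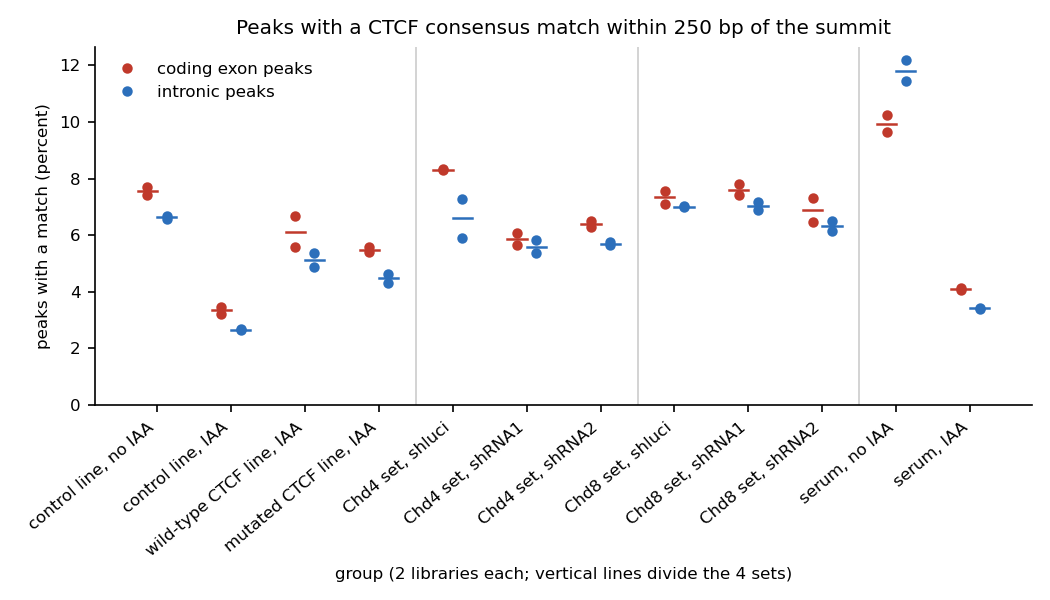
Percent of a library's peaks with a CTCF consensus match within 250 bp of the summit (vertical), for coding exon and intronic peaks in each of the 12 groups (horizontal), in reduced lists. Points are libraries and bars their means. The IAA libraries of the control line (3.23% and 3.45% for coding exon peaks) and of the serum set (4.14% and 4.06%) are the lowest of their sets.

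The share of all peaks that lay in coding exons showed no common shift with degradation in the main setting. It was 2.62% and 2.59% without IAA against 2.96% and 2.67% with IAA in serum-free medium, a change of 0.209 points (SD 0.145), which was 0.0649 points within the libraries with the mitochondrial-like peak. In serum it was 2.78% and 2.84% against 2.81% and 2.78%, a change of −0.012 points. The change over both media was 0.0986 points (p = 0.278, exact permutation test, two-sided).

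A site was counted as lost when all reference libraries and no treated library had a peak over it in the reduced lists, and as gained in the opposite case. The percentages are of the sites called by all reference libraries for losses and by all treated libraries for gains, and the value over sites of all classes stands beside each. These are counts of calls, and no test per site was made. In serum-free medium 357 of 4807 members (7.43%) were lost with IAA, against 7.33% of all sites, and 348 of 4890 (7.12%) were gained, against 5.49%. In serum 265 of 2084 (12.7%) were lost, against 9.73%, and 222 of 2133 (10.4%) were gained, against 8.21%. The background includes sites near starts, which were rarely lost (3.56% in serum-free medium and 3.24% in serum). Intronic sites were lost in 8.50% and 14.7% of cases, above the members in both media. They were gained in 6.48% of cases in serum-free medium, below the members, and in 11.5% in serum, above them.

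Loss went with the CTCF match. In serum-free medium 123 of 369 members with a match (33.3%) were lost, against 5.27% of members without, and in serum 92 of 217 (42.4%) against 9.27%. Intronic sites with a match were lost in 43.2% and 54.4% of cases, a difference from members that was not tested. Among members with a match 9 of 205 (4.39%) and 4 of 93 (4.30%) were gained, against 7.24% and 10.7% of members without. By whether the match lay inside the coding part, the share lost was 34.4% inside and 32.6% outside in serum-free medium and 39.5% and 44.1% in serum. Its strand gave 35.5% on the gene's strand and 31.8% on the opposite strand in serum-free medium, and 39.8% and 44.4% in serum, so neither order was the same in both media.

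Over both media, 1822 members had a peak in each of the 4 libraries without IAA. Of these, 73 (4.01%) had none in the 4 IAA libraries, against 3.55% of all sites. That background includes sites near starts, lost in 0.851% of cases. Intergenic sites were lost in 4.84%, intronic sites in 5.88% and noncoding exon sites in 6.29% of cases, all above the members. A match was present in 39 of the 73 and in 194 of the 1822. In the opposite direction 14 of 1816 (0.77%) were gained, against 0.262% of all sites and 0.334% of intronic sites. None of the 14 had a match, nor did most of the 1816, of which 78 had one. The lost members with the highest mean percentile in the 4 libraries without IAA were in Acod1, Arhgef26, Ltn1, Crtc1, Slc26a11, Ubr4, Krr1 and Sfpq. Acod1 encodes the enzyme that makes itaconate. Its peaks stood at 86.3 and 90.1 without IAA in serum-free medium and at 86.3 and 79.6 in serum, and no IAA library of these groups called it. Its best CTCF match had 2 mismatches and was not counted as a match. Arhgef26, whose match has no mismatch, stood at 80.3 and 71.8 in serum-free medium and 79.4 and 71.4 in serum. Crtc1 stood at 78.5 and 84.8, and at 71.7 and 47.5 in serum. Slc26a11 stood at 71.4 and 73.6, and at 75.9 and 56.0 in serum. Sfpq stood at 70.8 and 75.8, and at 53.6 and 73.3 in serum. All were called by 0 of 4 libraries with IAA, which is how they were chosen.

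The remaining 3, Ltn1 (a ubiquitin ligase of stalled ribosomes), Ubr4 (an N-recognin ubiquitin ligase) and Krr1 (a ribosome biogenesis factor), had no match with at most 1 mismatch. Peaks over the named sites often had their summit beside the exon. Of the libraries with an overlapping peak, own summits in a coding exon were seen in 10 of 18 at Acod1, 3 of 15 at Arhgef26, 1 of 12 at Ltn1, 7 of 15 at Crtc1, 5 of 11 at Slc26a11, 4 of 11 at Ubr4, 5 of 19 at Krr1 and 6 of 8 at Sfpq. Of the 73 lost members, 19 had their own summit in the exon in all 4 libraries without IAA. The members gained in both media that ranked highest were weaker. They were in Aspm, a spindle pole gene, Wnt2b, a Wnt ligand gene, Crebl2 and Wdfy3, an autophagy adaptor gene, with mean percentiles over the 4 IAA libraries of 47.5, 41.3, 37.9 and 37.0. The lowest single value was 7.35, in serum, at Aspm.

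The lines with added CTCF show which coding exon sites were called when IAA was added to cells with a further source of CTCF. Neither line has a library without IAA. A standing difference between the lines and the control line therefore cannot be told apart from an effect of the added CTCF. With IAA, the motif share of coding exon peaks was 6.66% and 5.58% in the wild-type line and 5.56% and 5.42% in the mutated line, against 3.23% and 3.45% in the control line. Both lines lay above the control line without overlap. The differences were 2.78 points (SD 0.552) and 2.15 points (SD 0.133), both at p = 0.33 by exact permutation, the least that 2 against 2 can give. Both lines lay below the 7.43% and 7.71% of the control line without IAA. Within the libraries with the mitochondrial-like peak the differences were 3.21 and 2.11 points, and within those without it 2.35 and 2.19 points, with 1 library against 1.

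Of the 123 members with a match that were lost in serum-free medium, 50 (40.7%) were called by both wild-type libraries, 53 (43.1%) by both mutated libraries and 35 by all 4. Of the 234 lost members without a match, 72 (30.8%) and 69 (29.5%) were called by both libraries of the lines. These comparisons share the control libraries with IAA. Against those libraries, 184 of 4380 members (4.20%) were gained in the wild-type line, against 5.14% of all sites, and 247 of 4934 (5.01%) in the mutated line, against 4.54%. A match was present in 56 of the 184 and in 59 of the 247, and in 278 of the 4380 and 300 of the 4934 from which they came. Lost were 341 of 4890 (6.97%) in the wild-type line, against 4.68% of all sites, and 210 of 4890 (4.29%) in the mutated line, against 3.71%. A match was present in 8 of the 341 and 3 of the 210, and in 205 of the 4890. The members called by all 4 libraries of the lines and neither control library with IAA numbered 92 (2.32%), against 2.2% of all sites, and 37 of them had a match, as did 245 of the 3971 members called by all 4 libraries of the lines.

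The strongest of the 92 were in Sycp2l, Acod1, Crtc1 and Cdk5rap2. Sycp2l encodes a meiotic chromosome protein, and its site in exon 16 has a match without mismatch beside the coding part. It stood at 96.9 and 96.1 in the control line without IAA, was not called with IAA, and stood at 97.4 and 98.0 in the wild-type line and 26.8 and 97.3 in the mutated line. In serum it was called in 1 library without IAA, at 11.4. Cdk5rap2, a centrosome gene, stood at 75.3 and 68.9 without IAA, at 69.3 and 69.5 in the wild-type line and at 56.4 and 71.0 in the mutated line. Acod1 stood at 78.5 and 81.5 in the wild-type line and 82.5 and 65.1 in the mutated line, and Crtc1 at 82.6 and 80.3, and 73.0 and 70.5. Own summits in the exon were seen at Sycp2l in 4 of 13 libraries with a peak over the site and at Cdk5rap2 in 9 of 19.

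Ctcf itself held coding exon sites, and those in exons 3 and 11 were called in the reduced lists by the overexpressing lines alone. The site in exon 3 of 12, chr8:105663790-105664434, was called by the 4 libraries of the wild-type and mutated lines, at 39.9, 29.5, 42.7 and 53.5, and by none of the other 20 in the reduced lists, while 5 deposited lists had a summit there. Its 645 bp were all coding, while coding sequence made up 67.5% of the exon 11 site and 34.1% of the exon 9 site. The site in exon 11, chr8:105680062-105680341, was called by the same 4 libraries, at 25.7, 45.3, 46.9 and 39.4, and by none of the other 20. It became a member through these 4 libraries alone, so its absence from the other lists is no separate result. Another site, in exon 9, was called by wild-type replicate 1 at 16.2 and serum with IAA replicate 2 at 46.4. All had a single summit sequence in the genome. Reads of the endogenous gene and of an introduced CTCF sequence cannot be told apart in peak lists, and the labels do not describe the construct. The sequence of exon 11 with 30 bases of intron on each side, chr8:105680041-105680289, plus strand, is printed with the 189 coding bases in capitals, since the site was called in these lines alone.
Ctcf: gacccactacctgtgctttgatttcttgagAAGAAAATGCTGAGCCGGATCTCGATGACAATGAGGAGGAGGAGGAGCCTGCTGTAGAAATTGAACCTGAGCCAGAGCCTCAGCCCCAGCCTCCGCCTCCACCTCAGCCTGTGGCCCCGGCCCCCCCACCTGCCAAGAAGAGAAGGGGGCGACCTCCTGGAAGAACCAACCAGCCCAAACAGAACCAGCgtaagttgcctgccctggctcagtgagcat

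The Chd4 set gave a higher coding exon share with hairpins. The share of all peaks that lay in coding exons was 1.90% and 1.89% with shluci, 2.22% and 2.22% with shRNA1, and 2.10% and 2.17% with shRNA2. All 4 hairpin libraries lay above both shluci libraries. The difference was 0.280 points (SD 0.0426 with both groups weighted alike, 2 against 4 libraries). It had p = 0.067 in the two-sided exact permutation test, the least this design can give, and 0.33 adjusted over 15 tests. It was 0.324 points for shRNA1 and 0.235 points for shRNA2. The share of peaks near starts moved at the same time, from 31.2% and 30.7% with shluci to between 22.1% and 27.4% with hairpins. Taken over peaks more than 2000 bp from starts only, the coding exon share was 2.77% and 2.73% with shluci and 2.69% to 3.06% with hairpins, which overlap, with a difference of 0.185 points (SD 0.121) and p = 0.33 in the same exact permutation test. Coding exon peaks also ranked higher in the lists with hairpins, with median percentiles of 44.1 to 47.3 against 42.1 and 41.6. The intronic medians were 45.9 to 46.7 with hairpins and 45.2 and 45.4 with shluci. With lists at their deposited length the difference in coding exon share was 0.144 points (p = 0.2, exact permutation), and with peaks of −log10 q of at least 10 it was 0.502 points (p = 0.067, exact permutation).

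The motif share of coding exon peaks was 8.28% and 8.34% with shluci, 6.07% and 5.66% with shRNA1 and 6.49% and 6.28% with shRNA2. The groups did not overlap. The difference was −2.19 points (SD 0.252), lower in 4 of 4 libraries, again at p = 0.067 by exact permutation and 0.33 adjusted. Among intronic peaks the share was 7.28% and 5.91% with shluci and 5.36% to 5.84% with hairpins. The coding exon motif share difference was −1.36 points in lists of deposited length (p = 0.067, exact permutation). It was −1.76 points with peaks of −log10 q of at least 10 and −0.172 points with the match within 50 bp of the summit, each at p = 0.267 by exact permutation.

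Replicates of the Chd4 set shared fewer sites than other libraries, with 39.0% to 45.4% of the members called by either library called by both, against 49.9% to 56.2% in the Chd8 set, 59.99% and 61.9% in serum and 69.8% to 75.4% in the CTCF lines. Of 1423 members called by both shluci libraries, 170 (11.9%) were called by no hairpin library, against 11.6% of all sites. Of 703 called by all 4 hairpin libraries, 93 (13.2%) were called by neither shluci library, against 12.5%. Both are near the background with these lists. That background includes sites near starts, lost in 7.18% and gained in 4.43% of cases. Intronic sites were lost in 14.4% and gained in 14.5%, above the members. With peaks of −log10 q of at least 10, gained were 36.7% against 16.2% of all sites, and with peaks covering at least 50% of the site, lost were 48.7% against 64.8% and gained 47.1% against 75.5%. By hairpin, 292 and 370 members were lost with shRNA1 and shRNA2 (20.5% and 26.0%, against 20.5% and 23.6% of all sites), and 320 and 317 gained (23.9% and 25.9%, against 21.9% and 24.2%). These comparisons share the shluci libraries.

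The gained members of the Chd4 set with the highest mean percentile, strong by the way they were ranked, most often had their own summit in the exon. Adamts18, a secreted metalloprotease gene, stood at 98.6, 97.9, 92.4 and 82.6 in the hairpin libraries and was called in 1 of the other 20 libraries, at 16.8. Its summit lies in exon 5 of 23, and the piece chr8:113775248-113775448, minus strand, is printed with coding bases in capitals as the clearest gained member.
Adamts18: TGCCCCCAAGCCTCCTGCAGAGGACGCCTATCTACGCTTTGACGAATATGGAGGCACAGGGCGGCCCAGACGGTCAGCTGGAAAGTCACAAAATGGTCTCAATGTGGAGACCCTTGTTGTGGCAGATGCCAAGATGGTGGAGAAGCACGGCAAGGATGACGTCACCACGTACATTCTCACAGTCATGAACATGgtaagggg

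Atp8a1, a phospholipid flippase gene, stood at 95.3, 96.4, 77.5 and 98.1 with hairpins, was called by neither shluci library, and was called at 5.03 to 65.7 in 11 libraries of the CTCF lines and the Chd8 set. Csmd1 stood at 73.3 to 96.1. Pard3, a cell polarity gene, stood at 69.9, 98.1, 94.2 and 91.9 with hairpins, and was called by neither shluci library and at 2.58 to 38.3 in 6 libraries of the CTCF lines. A further 4 Chd8 libraries and 1 serum library called it, at 28.2 to 69.6. The lost members ranked by the shluci libraries were in Mknk1, a kinase gene of the MAP kinase pathway, Zzef1, Tcp11l1 and Mamstr, a coactivator gene of muscle genes. Mknk1 stood at 82.6 and 93.5 with shluci, at 95.8 to 98.8 in the CTCF lines and at 80.0 to 94.2 in the Chd8 set, and was called by no Chd4 hairpin library. Zzef1 stood at 85.2 and 90.4 with shluci and at 87.7 to 93.3 in the CTCF lines. At these lost sites the overlapping peak mostly had its summit outside the exon, with own summits in 2 of 20 libraries at Mknk1, 2 of 16 at Zzef1, 8 of 16 at Tcp11l1 and 5 of 20 at Mamstr. At the gained sites own summits were seen in 5 of 5 libraries at Adamts18, 12 of 15 at Atp8a1, 7 of 10 at Csmd1 and 8 of 15 at Pard3. These are the top-ranked sites only. Over the whole classes, 71 of the 170 lost members had their own summit in both shluci libraries. Of the 93 gained members, 44 had it in all 4 hairpin libraries.

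**Figure D4:**
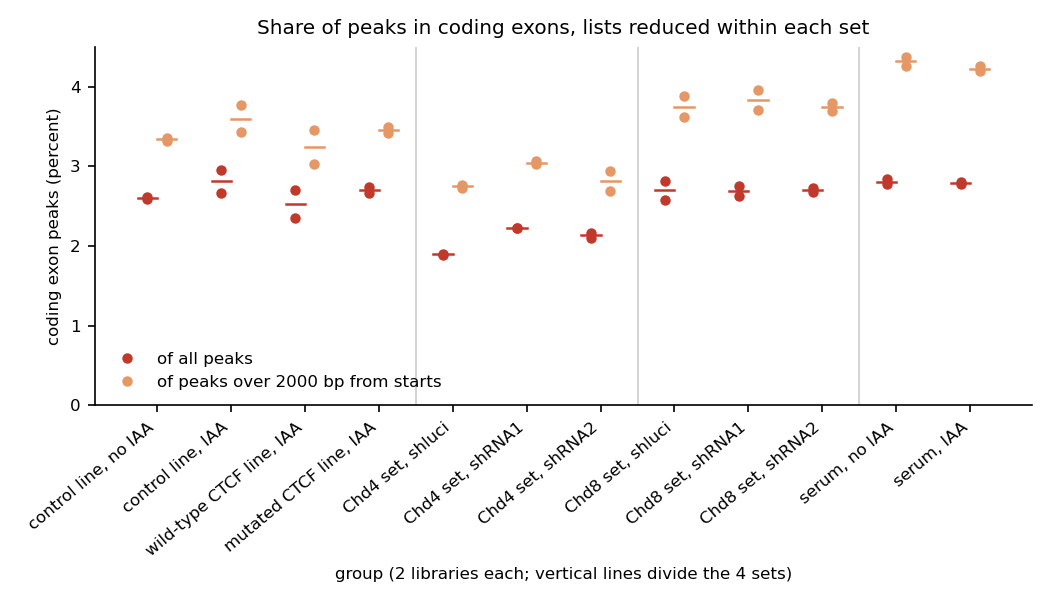
Coding exon peaks as a percent of a library's reduced list (dark) and of its peaks over 2000 bp from starts (light), for the 12 groups (horizontal). Points are libraries and bars their means. In the Chd4 set the dark points of the hairpin groups (2.10% to 2.22%) lie above shluci (1.90% and 1.89%), while the light points overlap.

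For the Chd8 hairpins both differences were smaller than the spread between libraries. The coding exon share was 2.58% and 2.82% with shluci and 2.62% to 2.76% with hairpins, a difference of 0.0015 points (SD 0.125, p = 1, exact permutation). The motif share was 7.57% and 7.09% with shluci and 6.46% to 7.79% with hairpins, a difference of −0.0877 points (SD 0.462, p = 0.933, exact permutation). Of 2831 members called by both shluci libraries, 90 (3.18%) were lost, against 3.4% of all sites, and of 2061 called by all 4 hairpin libraries, 55 (2.67%) were gained, against 2.2%. By hairpin, 264 and 236 members were lost (9.33% and 8.34%, against 8.94% and 7.26% of all sites) and 219 and 308 gained (8.00% and 9.57%, against 6.78% and 9.07%). The highest-ranked lost members were in Pdzd2, Tk1, Tmem44 and Dcst2. Pdzd2 stood at 73.6 and 82.8 with shluci, and Tk1, the gene of thymidine kinase, at 82.9 and 60.2; the 32 bases at the summit of Tk1 occur at 2 places in the genome, so its reads may be shared. The highest-ranked gained members were in 1500015O10Rik, Impdh1, the gene of a guanine nucleotide synthesis enzyme, Per2, a circadian clock gene, and Abca4. Impdh1 stood at 71.8 to 76.1 in 3 hairpin libraries and at 52.2 in the other, and Per2 at 59.1 to 83.1. Per2 was also called in all 8 libraries of the CTCF lines, at 51.8 to 76.5.

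**Figure D5:**
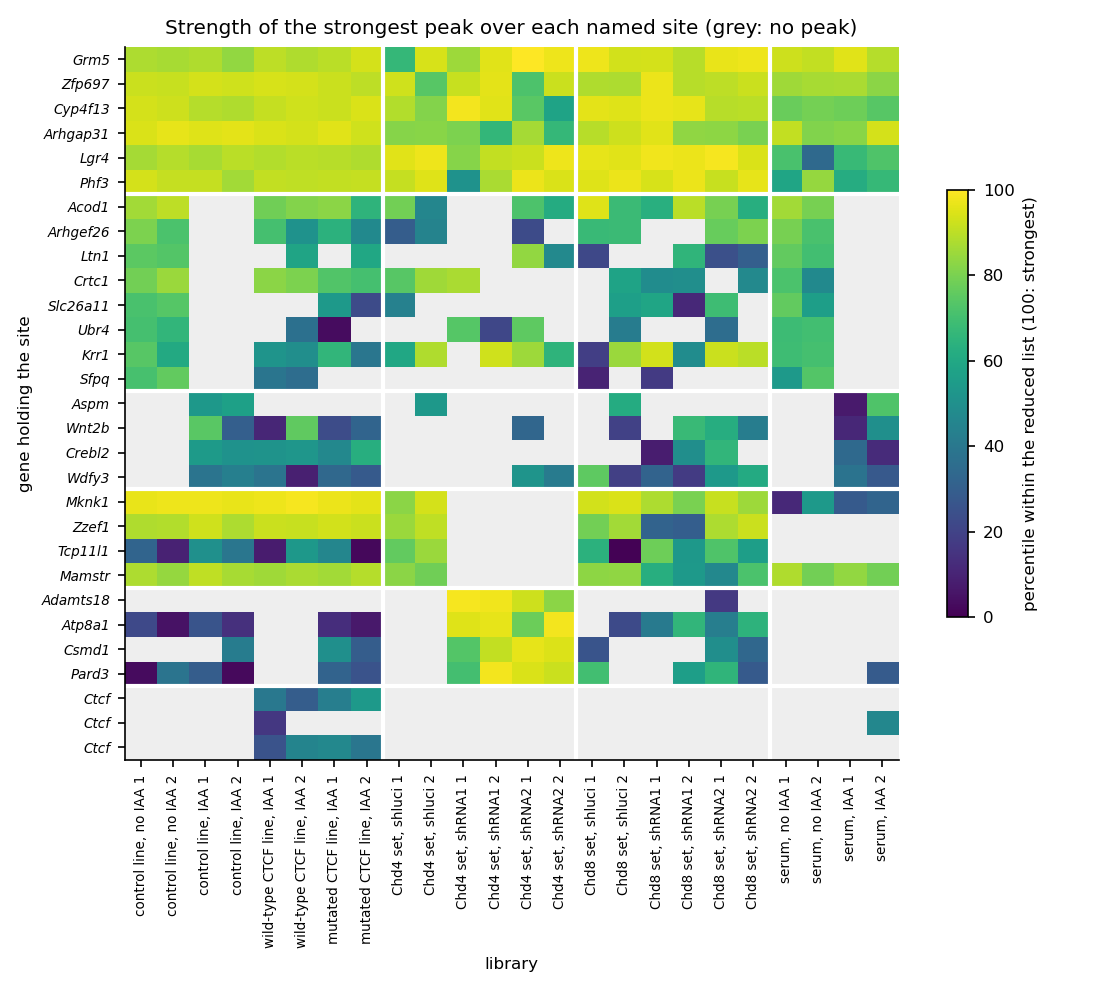
Percentile by −log10 p (100 is the strongest) of the strongest peak over each named site in each of the 24 libraries, in reduced lists, with grey for no peak. From the top the blocks are sites with their own summit in all 24 libraries, sites lost and gained with IAA in both media, sites lost and gained with Chd4 hairpins, and the 3 Ctcf exon sites. The grey cells that define each block are the rule by which it was chosen, and the bottom block shows the exon 3 and exon 11 sites of Ctcf in the overexpressing lines.

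The genes with the most members differed widely in coding length. Ttn, which encodes titin and has 121 kb of eligible coding sequence, had 17 sites, Dst and Fn1 had 16 each, Myo10 had 12 and Ryr3 had 11. Per kb of coding sequence this is 0.141 sites in Ttn, 0.662 in Dst, a cytoskeletal linker gene, 2.01 in Fn1, the fibronectin gene, 1.93 in Myo10, an unconventional myosin gene, and 0.757 in Ryr3, a calcium channel gene. Among fixed gene groups, C2H2 zinc finger genes, which carry long last exons, had sites in 184 of 463 eligible genes, against 37.5% of all eligible genes. Their 265 sites lay in coding parts with a median of 1118 bp, and 17.7% were island-like, against 9.58% of all members. In all 24 deposited lists were 12 of the 265, against 0.80% of all members, with Prdm13, Sp8, Zfp169 and Zfp282 as examples. Per Mb of coding sequence they had 309 sites, against 359 over all eligible coding parts. Pluripotency genes had 23 sites in 12 of 20 genes, or 787 per Mb. Examples were exon 3 of Tet2 in 22 libraries, exon 4 of Zfp42 in 21, exon 13 of Tet1 in 20 and exon 6 of Nr5a2 in 14. Tet1 and Tet2 encode enzymes that oxidise methylcytosine, Zfp42 encodes REX1 and Nr5a2 a nuclear receptor of these cells.

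Genes for CTCF and cohesin proteins had 9 sites in 6 of 15 genes, with Nipbl, the cohesin loader, in 7 libraries and Rad21 in 4. Genes of the CHD and NuRD group had 27 sites in 12 of 19 genes, with the last exon of Chd7 in 21 libraries and exon 29 of Chd8 in 12. Collagen and laminin genes had 48 sites in 26 of 54 genes, or 192 per Mb, with Col5a2 in 13 libraries. Cadherin-like genes of the Celsr, Fat and Dchs families had 20 sites in 9 of 9 genes, with Fat1 in 20 libraries. Olfactory receptor genes, used mainly in sensory neurons of the nose, had 7 sites in 6 of 107 genes, or 65.8 per Mb, and Hox genes had 3 sites in 3 of 10 genes, those of Hoxc9, Hoxd3 and Hoxa3. Over all eligible genes 37.5% had a site, at 359 sites per Mb of eligible coding parts, and no group was tested against these values. In serum-free medium 5 of 127 C2H2 sites were lost with IAA and 5 of 125 gained, against 7.33% and 5.49% of all sites. In serum 4 of 67 were lost and 9 of 67 gained, against 9.73% and 8.21%. For the Chd4 hairpins 1 of 41 C2H2 sites was lost and 2 of 22 were gained, against 11.6% and 12.5%. The other groups had at most 3 lost or gained members in each of these comparisons.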

How the data were processed

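The files were 24 lists of ATAC-seq peaks, 1 per library. Per the submitters' processing notes, Trim Galore, Bowtie2, MACS2 and deepTools were used on mm10; their roles, versions and settings are not given in the sources used here. Each list holds, per peak, the fold enrichment ratio and the −log10 p and −log10 q that the authors deposited, and the lowest −log10 q of a list was 1.30 to 1.31. Reads were not used, so depth per library is unknown, and the number of peaks stands in its place: CTCF lines libraries had 117123 to 151285, Chd4 libraries 78601 to 138179, Chd8 libraries 132155 to 162594 and serum libraries 58408 to 80536. A longer list calls more weak sites, so each list was reduced to the strongest peaks by −log10 p, up to the shortest list of its set. Peaks were assigned by summit to GENCODE vM21 basic parts with Python 3.11.15, numpy 2.4.6, pandas 2.3.3 and scipy 1.17.1, and scripts were tested on simulated data.

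Shares of peaks were compared over libraries by exact permutation tests. The SD beside a difference is the root of the mean of the group variances, with each group weighted alike whatever its number of libraries. Sites named in the text were the highest by mean percentile in the libraries that define each class, with 6 for all 24 libraries, 8 for losses with IAA and 4 for each other class, plus the 5 genes with most sites, the Ctcf sites and the broadest sites of up to 4 genes of each gene group. Some sites and 1 marker are not reported here, and the next site in rank was taken. The Ecd, Nynrin and Kndc1 sequences and the Ctcf exon sites were chosen after their values were seen. The members and lists were chosen with earlier results of these data known. Replicate numbers were checked for pairing, with correlations of replicate differences of −0.0994 to 0.0761 between groups, and were not used to pair libraries. A strong peak at mitochondrial-like sequence was present in 5 of the 8 libraries of the CTCF lines and absent from control with IAA replicate 1, wild-type replicate 2 and mutated replicate 2.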

Additional observations from a re-analysis of the deposited data

Results flagged for a closer look

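The hairpin minus shluci difference in the CTCF motif share of coding exon peaks was compared between the remodeller sets. It was −2.19 points in the Chd4 set and −0.0877 points in the Chd8 set, a difference of −2.10 points with p = 0.0356 by exact permutation within sets (225 arrangements, 2 against 4 libraries in each). The same comparison of the coding exon share gave 0.278 points and p = 0.0533 by exact permutation. With the match within 50 bp of the summit, the motif share differences were −0.172 points in the Chd4 set and 0.147 points in the Chd8 set, and the difference between the sets was not tested there. These p-values were not adjusted for the 2 comparisons, the sets differ in list length and replicate sharing, and the part of these in the difference was not tested.

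With IAA, the coding exon motif share changed by −0.264 points relative to the intronic share in serum-free medium and by 2.55 points in serum. The sets differed by 2.81 points (exact permutation over 36 arrangements, p = 0.056, the smallest possible), and every IAA library moved in the direction of its set. The sets also differ in line label (the serum-free libraries are of the overexpressed control line) and in list length (117123 against 58408 peaks), so medium, line and list length cannot be told apart. With peaks of −log10 q of at least 10 the change over both media was −2.04 points in place of 1.14, and the difference between the sets was not computed there. Among the coding exon and intronic peaks of all libraries, in lists of differing length, intronic peaks in serum without IAA had the highest motif shares, 12.2% and 11.4%.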

How the results depend on the processing

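Of the values recomputed with all libraries, 87 kept their sign (shares) or lay within 1.5 times of the main percentage (lost and gained sites), 14 changed sign and 30 percentages moved further. The 87 include, for each of the 15 share tests, a value with the replicate number as a block, which is the same by construction. The cause of the changes was not tested. A kept sign is not a kept size: at deposited list length the coding exon share difference was 0.0296 points in serum-free medium, −0.0882 for the wild-type line and 0.144 for the Chd4 hairpins, and within 50 bp of the summit the Chd4 motif share difference was −0.172 points. The CTCF motif share kept its sign under every alternative tried for degradation, the overexpressing lines and the Chd4 hairpins. The coding exon share difference changed sign with peaks of −log10 q of at least 10 for degradation in serum-free medium (−0.059 points), degradation in serum (0.304), the wild-type line (0.0194), the mutated line (0.139) and the Chd8 hairpins (−0.0554). At deposited list length it was 0.267 for degradation in serum and 0.0613 for the mutated line. Over 5000 bp from starts it was 0.0368 in serum and −0.0257 for the Chd8 hairpins. The Chd8 motif share difference was 0.166 at deposited length, 0.226 at the stricter q, 0.0376 over 5000 bp from starts and 0.147 within 50 bp of the summit. The coding exon minus intronic change was −2.04 at the stricter q.

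At the stricter q, lost were 12.3% in serum-free medium, 2.64% in the wild-type line, 1.48% in the mutated line, 47.7% with Chd4 hairpins and 5.80% with Chd8 hairpins, and gained were 3.65% in serum-free medium, 25.1% in serum, 7.79% in the wild-type line, 9.59% in the mutated line and 36.7% with Chd4 hairpins. Over all sites the lost values were 10.4%, 1.46%, 1.23%, 41.6% and 2.92%, in the same order, and the gained ones 2.76%, 14.4%, 7.70%, 7.04% and 16.2%. At deposited length, lost were 8.41% in serum, 3.52% in the wild-type line and 2.08% in the mutated line, and gained were 4.11% in serum-free medium and 15.7% in serum, against 7.52%, 2.60%, 2.39%, 3.93% and 12.5% of all sites. With peaks covering at least 50% of the site, lost were 48.7% with Chd4 and 7.57% with Chd8 hairpins, and gained were 20.7% in serum, 7.68% in the mutated line, 47.1% with Chd4 and 8.59% with Chd8 hairpins. Over all sites these were 64.8% and 14.1% lost, and 17.9%, 7.14%, 75.5% and 5.28% gained. Counting own summits in the exon, an alternative chosen after seeing the data like the share among peaks away from starts and the split by the mitochondrial-like peak, lost were 13.3% in serum-free medium, 13.1% in the wild-type line, 10.2% in the mutated line and 6.64% with Chd8 hairpins, and gained were 13.3% in serum-free medium, 16.9% in serum, 10.5% in the wild-type line, 10.4% in the mutated line and 4.39% with Chd8 hairpins, with no value over all sites computed.

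Leaving out 1 library at a time, the coding exon share difference ranged from −0.0437 to 0.0197 in serum, −0.253 to 0.0354 for the mutated line, −0.116 to 0.119 for Chd8 hairpins, 0.0649 to 0.353 in serum-free medium and −0.458 to −0.108 for the wild-type line, and the Chd8 motif share difference from −0.323 to 0.173. Lost and gained percentages rose by construction, since fewer libraries must agree: lost were 10.7% to 13.1% and gained 11.6% to 15.0% in serum-free medium, 18.8% to 20.9% and 17.7% to 20.9% in serum, 10.7% to 17.8% and 7.44% to 9.46% in the wild-type line, 8.10% to 11.3% and 9.26% to 11.1% in the mutated line, 14.9% to 22.4% and 16.1% to 21.8% with Chd4 hairpins, and 4.52% to 10.2% and 4.13% to 14.2% with Chd8 hairpins. Over all sites, in the same order, lost and gained were 11.4% to 12.1% and 9.53% to 13.2%, 13.9% to 18.1% and 14.1% to 17.6%, 8.35% to 12.2% and 8.90% to 10.5%, 7.79% to 10.5% and 8.99% to 10.2%, 14.5% to 20.4% and 14.9% to 19.8%, and 4.56% to 11.7% and 3.36% to 10.3%. With the replicate number as a block (replicate block), values were the same by construction, with exact permutation p = 0.125 for the motif share change of −5.03 points over both media and p = 0.111 for the Chd4 differences of 0.280 and −2.19 points, and no call changed. Peak lists give no depth, so a site with no peak is one not called, not one shown to be closed.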
